A study of Mus musculus with 4 samples.

Results

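Brain RNA of tau-/- mice and of tau+/+ mice was compared after injection of vehicle, to ask how the genotypes differed before any seizure was provoked. Both groups were C57Bl/6 mice 6 weeks of age, treated as sham, with 1 library each. The remaining libraries, also 1 per genotype, came from mice given 50 mg/kg pentylenetetrazole (PTZ), which blocks inhibitory GABA receptors and provokes seizures. They were used here only to show where the vehicle values lie. The tau-/- line carries a GFP cDNA knocked into the first exon of Mapt, the gene for tau, so tau is missing from every cell throughout life. How many mice a library holds is not stated in the sources used here, and seizure scores decided which PTZ mice were kept. The labels give brain as the source, although they also mention cultured primary neurons. All 230 of the 230 listed genes entered the comparison, as log2 of the tau-/- vehicle FPKM divided by the tau+/+ vehicle FPKM, without a pseudocount. FPKM is the number of sequenced fragments scaled to transcript length and library size, and the fragments behind each value cannot be read from it. The study gives only a minimum of aligned read pairs per sample, not the depth of each library.

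Tau is a microtubule-associated protein of neurons that also acts at the synapse. Neuronal firing opens calcium entry and turns on the Ras/ERK cascade, and the kinases at its end act on transcription factors that already sit at the promoters of immediate early genes (IEGs). The first IEGs to respond code for transcription factors such as Fos, the Egr family and the Nr4a receptors, and others code for synaptic proteins such as Arc or for phosphatases that switch the cascade off again. IEG transcripts are short-lived, so their level can follow recent activity. What set their level in these vehicle-injected mice was not tested.

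The table is a selection. The authors listed genes that changed after PTZ in tau+/+ and changed less or not at all in tau-/-, and that choice used both vehicle libraries of the present comparison. A low value in tau+/+ vehicle, or a high one in tau-/- vehicle, makes a gene more likely to be listed as rising and also raises its ratio here, and the reverse holds for genes listed as falling. For this reason each gene group is set beside the 175 genes that were higher after PTZ in tau+/+ ("rising genes") or the 55 that were lower ("falling genes"). With 1 library per group neither a replicate check nor a test could be made, so a gene is described as higher or lower only when the ratio passed 1.5-fold. The study used the same fold but also required a p-value cut, which is not applied here.

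Mapt itself is not analysed here, so the genotypes are those that the labels give. Of the marker lists for cells of the brain, the markers of red blood cells, microglia and oligodendrocytes are not among the listed genes, Fabp7 is the only astrocyte marker and Arc, Npas4, Bdnf and Nptx2 are the only neuronal ones. The neuronal markers present are all activity genes and therefore say little of the number of neurons. In bulk RNA, fewer cells of a type and less RNA per cell cannot be told apart.

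Over the whole table, tau-/- vehicle differed little from tau+/+ vehicle. The median log2 difference was 0.11, with quartiles of -0.23 and 0.38 and a range from -2.25 to 1.64. In tau-/- vehicle, 32 of the 230 genes were higher by over 1.5-fold (13.9%), 23 were lower (10%) and 175 lay within 1.5-fold. All 32 higher genes were rising genes, which makes 18.3% of that group, while 15 rising genes were lower (8.57%). Of the falling genes, none was higher (0%) and 8 were lower (14.5%). The medians of the rising and the falling genes were 0.23 and -0.26. Counted at any size of difference, 135 of all genes were above their tau+/+ value in tau-/- vehicle (58.7%), with 121 among the rising genes (69.1%) and 14 among the falling ones (25.5%). When the ratios were centred on the median of the table, 19 genes were higher and 29 lower, so the balance between the directions rests on the scaling. These shares are the background for every count below.

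The spread was widest among weakly expressed genes. Below a mean of 1 FPKM over the vehicle libraries, the SD of the log2 difference across 21 genes was 0.86, against 0.47 for the 120 genes at 1 to 5 FPKM, 0.45 for the 69 genes at 5 to 20 FPKM and 0.46 for the 20 genes at 20 FPKM or more. The most extreme values of the table, E030010A14Rik at 1.64 and Xlr3b at -2.25, both belong to genes under 1 FPKM. Xlr3b also has near-identical copies beside it on chromosome X, between which reads cannot be assigned with certainty. Among the 20 most abundant genes, 5 were higher (Sgk1, Nr4a1, Arc, Bhlhe40 and Ddit4), none was lower, and the median was 0.35.

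**Figure D1:**
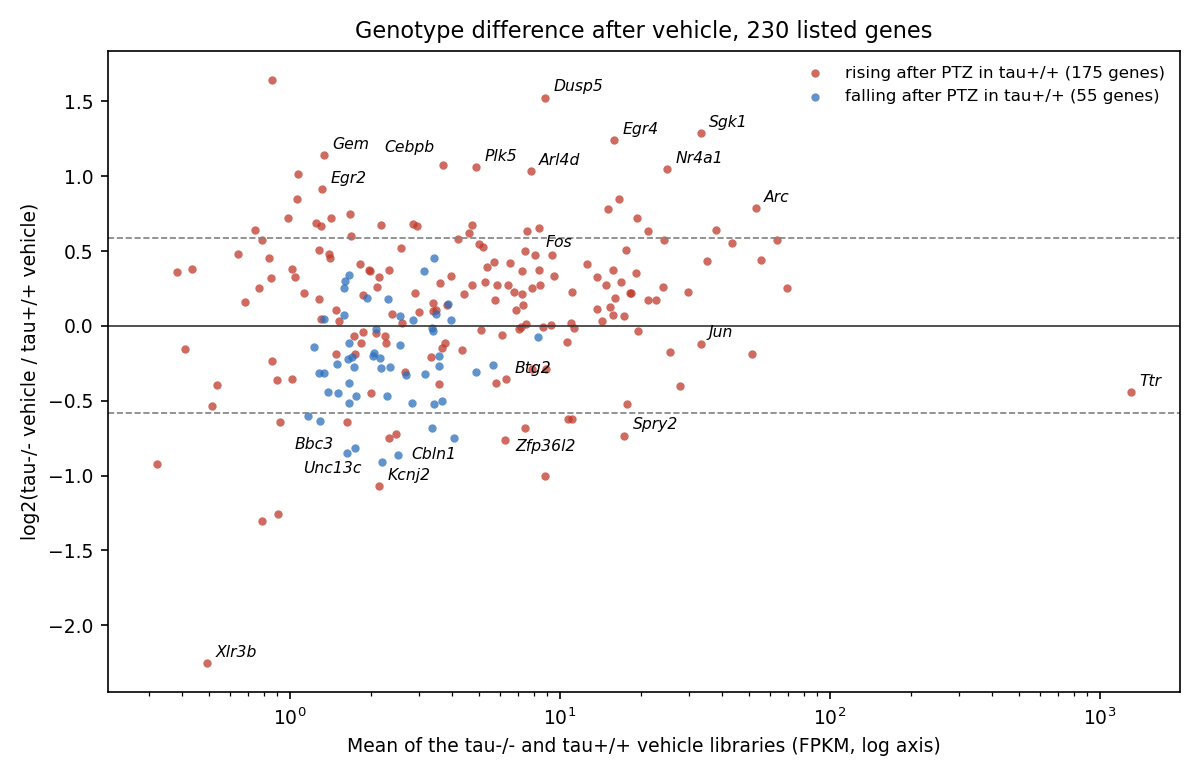
Each point is 1 of the 230 listed genes, with the mean FPKM of the vehicle libraries on a log axis against log2 of tau-/- vehicle over tau+/+ vehicle, and dashed lines mark 1.5-fold. The widest scatter is at the left, below 1 FPKM, whereas Dusp5, Sgk1, Egr4, Nr4a1 and Arc stand above the upper line at higher levels and Spry2 and Kcnj2 stand below the lower one.

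Genes that neurons switch on with activity were shifted towards higher values in tau-/- vehicle. The 6 lists of such genes hold 35 listed members, all of them rising genes. Of these, 11 were higher by over 1.5-fold (31.4%) and 1 was lower (2.86%). Above their tau+/+ value at any size were 30 (85.7%), against 69.1% of all rising genes and 65.0% of the 140 rising genes outside those lists. Those 140 genes include the 15 choroid plexus genes described below, of which only 4 were above tau+/+, and this widens the contrast. The median of the 35 members was 0.44, against 0.21 for the 140 genes, of which 15.0% were higher. Limited to the 27 members with at least 5 FPKM in tau+/+ vehicle, 7 were higher and the median was again 0.44. The shift was uneven, and some of the most strongly inducible genes took no part in it.

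The Egr transcription factors, zinc finger proteins of the first wave, were all above their tau+/+ level. Egr4 was at 9.45 FPKM in tau+/+ and 22.3 FPKM in tau-/- after vehicle, and at 102.4 and 17.0 FPKM after PTZ. Its vehicle ratio of 2.36-fold (log2 1.24) was among the 10 highest. After PTZ the tau-/- value lay below the tau-/- vehicle value. Egr2 was at 0.913 FPKM in tau+/+ and 1.72 FPKM in tau-/- after vehicle (log2 0.91), and at 14.05 and 1.88 FPKM after PTZ. Egr1 and Egr3, the abundant members, fell just short of the threshold with 1.49-fold (51.0 against 76.1 FPKM) and 1.47-fold (35.2 against 51.8 FPKM). Srf, the serum response factor that drives several IEGs, was at 15.1 and 18.5 FPKM (log2 0.29). In this list, 5 of 5 members were above tau+/+, where 69.1% of all rising genes were, and 2 were higher (40%, against 18.3%). The median of the list was 0.58.

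The Nr4a orphan nuclear receptors, which are also first-wave factors, showed the same direction in 3 of 3 members. Of these, 2 were higher, where 18.3% of all rising genes were. Nr4a1 was at 16.3 FPKM in tau+/+ and 33.7 FPKM in tau-/- after vehicle, and at 178.3 and 42.9 FPKM after PTZ, a vehicle ratio of 2.07-fold (log2 1.05). Nr4a3 was at 14.5 and 23.9 FPKM after vehicle (log2 0.72) and at 46.3 and 25.7 FPKM after PTZ, so that its tau-/- libraries were almost level. Nr4a2, a factor required by midbrain dopamine neurons, was at 21.9 and 26.2 FPKM (log2 0.26).

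AP-1 subunits differed less. Fosb was the only one of 7 members past 1.5-fold, with 3.63 FPKM in tau+/+ and 5.57 FPKM in tau-/- after vehicle (log2 0.62) and 95.4 and 8.45 FPKM after PTZ. Fos was at 6.80 and 9.43 FPKM after vehicle (log2 0.47), and Junb at 29.8 and 40.3 FPKM (log2 0.44). Jun, at 34.6 and 31.8 FPKM (log2 -0.12), and Fosl2, at 9.26 and 9.29 FPKM (1.00-fold), were level between the genotypes. The small Maf factor Maff and the stress-inducible Atf3 were under 0.5 FPKM in both vehicle libraries. The median of the list was 0.36.

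Npas4, a transcription factor induced almost only by calcium entry in neurons, was level as well. It was at 3.21 FPKM in tau+/+ and 3.57 FPKM in tau-/- after vehicle (log2 0.15), although it reached 76.9 FPKM in tau+/+ after PTZ and 5.58 FPKM in tau-/-. The neurotrophin gene Bdnf was at 13.2 and 14.3 FPKM after vehicle (log2 0.12). Npas4 and Ptgs2 are thus genes with a large PTZ response in tau+/+ whose vehicle values were nearly level between the genotypes. Btg2, an antiproliferative early gene, ran the other way without passing 1.5-fold. It was at 7.10 FPKM in tau+/+ and 5.56 FPKM in tau-/- after vehicle (log2 -0.35) but at 104.9 and 14.3 FPKM after PTZ.

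Synaptic and signalling effectors were above tau+/+ in 11 of 12 members (91.7%, against 69.1% of all rising genes), and 4 were higher (33.3%, against 18.3%). Arc, which drives removal of AMPA receptors from synapses, was at 39.0 FPKM in tau+/+ and 67.2 FPKM in tau-/- after vehicle (1.72-fold), and at 167.8 and 33.6 FPKM after PTZ. The tau-/- vehicle library was thus the second highest of the 4. Arl4d, a small GTPase of the Arf family, was at 5.12 and 10.5 FPKM after vehicle (2.05-fold) and at 47.2 and 6.85 FPKM after PTZ. Gem, a GTPase that restrains calcium channels, was at 0.836 and 1.84 FPKM after vehicle (2.20-fold). Rasl11a, a Ras-like gene, was at 6.53 and 10.3 FPKM (1.58-fold), and Rasl11b and Rcan1, the latter an inhibitor of calcineurin, reached 1.49-fold and 1.42-fold. Level genes on this list were Ptgs2, the inducible cyclooxygenase, at 7.44 and 7.53 FPKM, the synaptic pentraxin Nptx2, at 14.1 and 14.5 FPKM, and Rgs2, a brake on G protein signalling, at 11.0 and 10.2 FPKM. The median of the list was 0.44.

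Inhibitors that act back on the MAP kinase cascade ran in both directions. Dusp5, a nuclear phosphatase of ERK, had the highest ratio of all genes above 1 FPKM. It was at 4.54 FPKM in tau+/+ and 13.1 FPKM in tau-/- after vehicle (2.88-fold, log2 1.52), and at 18.9 and 10.8 FPKM after PTZ. Only the tau+/+ vehicle library stood clearly apart, below the other 3. Errfi1, an inhibitor of the EGF receptor, was at 11.8 and 21.3 FPKM after vehicle (1.80-fold) and at 60.4 and 19.95 FPKM after PTZ. Spry2, which restrains receptor signalling upstream of Ras, went the other way, with 21.6 FPKM in tau+/+ and 13.0 FPKM in tau-/- after vehicle (log2 -0.73) and 36.0 and 17.8 FPKM after PTZ. Of the 4 libraries, tau-/- vehicle was the lowest for Spry2. Among the other phosphatases, Dusp4 was at 6.18 and 8.74 FPKM (log2 0.50), Dusp6, the cytoplasmic ERK phosphatase, at 19.9 and 22.5 FPKM (log2 0.18) and Dusp1, which prefers p38 and JNK, at 8.70 and 8.66 FPKM (log2 -0.01). The median of the 6 members was 0.34.

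**Figure D2:**
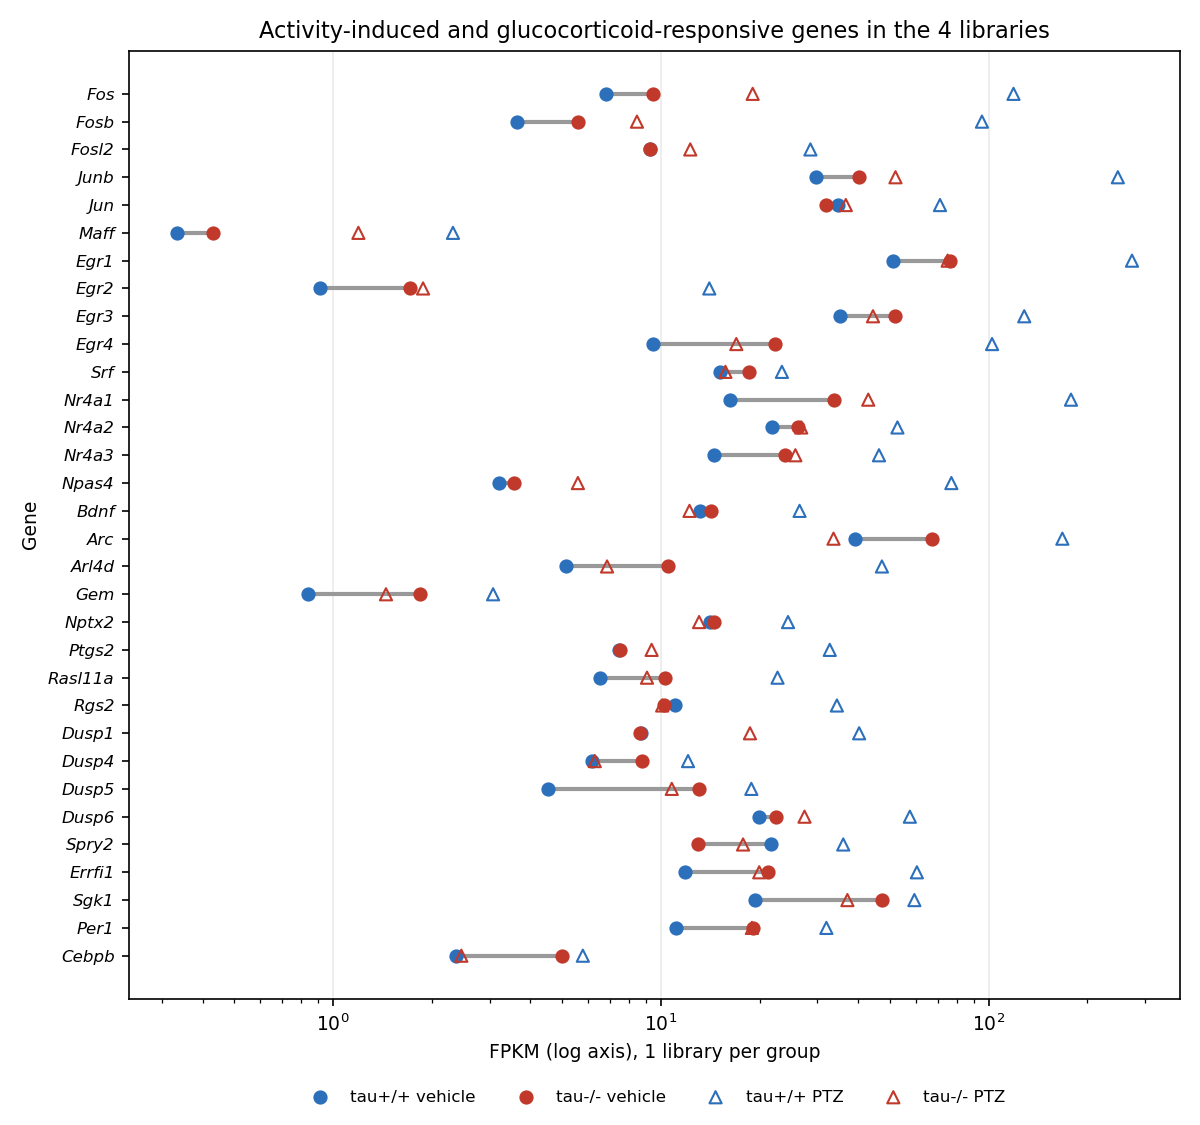
FPKM on a log axis for activity genes and for Sgk1, Per1 and Cebpb in each of the 4 libraries, with filled circles for vehicle, open triangles for PTZ, blue for tau+/+ and red for tau-/-, and a grey bar joining the vehicle values. The bar is long for Dusp5, Sgk1, Egr4 and Nr4a1, short or absent for Jun, Fosl2, Npas4, Ptgs2 and Dusp1, and turned round for Spry2.

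The promoters of some of these genes are shown because they carry the sites through which calcium and ERK signals are known to act. The cAMP response element (CRE), bound by CREB, has the half-site TGACG, read as CGTCA on the other strand, and the full palindrome TGACGTCA contains both. The CArG box is bound by Srf. RefSeq promoter windows on GRCm38.p6, from 250 bases before to 50 bases after the start, were found for 175 of the 230 listed genes. Of these, 158 were matched by symbol and 17 by an older symbol or synonym. Among the latter, A2m was matched to a window of Pzp (chr6:128526671-128526970), away from A2m itself (chr6:121635376-121679227). That window holds no half-site and is counted with the rising genes within 1.5-fold. In the lines below, which run 5′ to 3′ along the gene's strand, capitals mark CRE half-sites, full CREs and CArG boxes.
Dusp5, chr19:53528895-53529194, plus strand: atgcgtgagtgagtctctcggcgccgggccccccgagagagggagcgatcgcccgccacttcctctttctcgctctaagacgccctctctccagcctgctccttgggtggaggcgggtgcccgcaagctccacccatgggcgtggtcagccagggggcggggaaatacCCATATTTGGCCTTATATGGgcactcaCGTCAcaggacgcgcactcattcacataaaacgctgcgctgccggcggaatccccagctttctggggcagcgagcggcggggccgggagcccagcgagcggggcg
Egr4, chr6:85513540-85513839, minus strand: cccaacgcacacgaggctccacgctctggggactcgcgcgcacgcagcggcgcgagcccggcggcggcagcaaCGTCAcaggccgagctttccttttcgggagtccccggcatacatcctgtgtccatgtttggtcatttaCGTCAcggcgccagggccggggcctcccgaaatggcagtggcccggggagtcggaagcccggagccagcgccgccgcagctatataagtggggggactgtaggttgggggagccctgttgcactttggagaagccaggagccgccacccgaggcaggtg
Nr4a1, chr15:101266596-101266895, plus strand: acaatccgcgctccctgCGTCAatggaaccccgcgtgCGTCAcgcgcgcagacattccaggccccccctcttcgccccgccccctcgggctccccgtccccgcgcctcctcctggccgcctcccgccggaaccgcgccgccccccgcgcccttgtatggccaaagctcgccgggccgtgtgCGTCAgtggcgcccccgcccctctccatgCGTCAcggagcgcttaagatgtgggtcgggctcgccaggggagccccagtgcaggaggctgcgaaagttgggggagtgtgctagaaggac
Arl4d, chr11:101665291-101665590, plus strand: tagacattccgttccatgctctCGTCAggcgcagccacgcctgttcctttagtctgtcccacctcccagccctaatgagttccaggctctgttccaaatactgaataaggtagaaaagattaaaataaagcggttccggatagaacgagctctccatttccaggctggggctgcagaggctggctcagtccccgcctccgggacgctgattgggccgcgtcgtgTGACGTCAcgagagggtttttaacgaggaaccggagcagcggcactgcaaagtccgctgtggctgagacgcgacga
Fos, chr12:85473640-85473939, plus strand: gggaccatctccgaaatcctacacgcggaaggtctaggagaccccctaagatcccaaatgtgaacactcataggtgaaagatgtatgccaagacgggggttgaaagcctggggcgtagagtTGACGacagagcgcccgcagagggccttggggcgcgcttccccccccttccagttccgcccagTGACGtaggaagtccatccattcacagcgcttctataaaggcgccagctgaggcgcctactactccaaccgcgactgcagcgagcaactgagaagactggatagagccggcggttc
Npas4, chr19:4989922-4990221, minus strand: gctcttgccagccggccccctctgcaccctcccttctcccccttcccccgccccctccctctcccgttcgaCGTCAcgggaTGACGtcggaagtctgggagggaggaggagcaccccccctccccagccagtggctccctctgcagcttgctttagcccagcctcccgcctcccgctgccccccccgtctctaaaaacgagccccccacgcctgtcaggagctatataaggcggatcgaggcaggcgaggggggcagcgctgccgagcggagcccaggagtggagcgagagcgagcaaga

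Within these windows, Dusp5 holds 2 CArG boxes side by side and 1 CRE half-site, Egr4 holds 2 half-sites, Nr4a1 holds 4, and Arl4d holds a full CRE and a separate half-site. Fos and Npas4, whose vehicle values differed by 1.39-fold and 1.11-fold, also hold 2 half-sites each. Sites outside the windows were not searched, so a window without a CArG box does not mean that the gene lacks such a box. Whether these sites bear on the vehicle values was not tested. A half-site was found in 20.8% of the 32851 windows of the RefSeq table. It was found in 56.8% of the 37 windows of the 23 higher rising genes with an entry, in 41.2% of the 131 windows of rising genes within 1.5-fold, in 28.6% of the 14 windows of rising genes that were lower and in 21.2% of the 52 windows of falling genes. Counted by gene, a half-site stood in 15 of the 23 higher rising genes, in 49 of the 96 within 1.5-fold, in 3 of the 11 that were lower and in 11 of the 45 falling genes. Over all 27025 genes of the RefSeq table the share was 23.0%. Among the activity-list genes with an entry it was 23 of 29. Those lists supply 11 of the 32 higher genes and 35 of the 175 rising genes. Each of their higher genes with an entry held a half-site, namely Fosb, Egr2, Egr4, Nr4a1, Nr4a3, Arl4d, Rasl11a, Dusp5 and Errfi1. Of the higher genes outside the activity lists, Sgk1, Cebpb, C2cd4a, Per1, Csrnp1 and Cish held a half-site. E030010A14Rik, Plk5, Gm11744, Wfikkn2, Gm129, Atoh8, Ddit4 and Gadd45b held none. The share among the higher genes thus leans on the activity lists, which were chosen with earlier results known. CArG boxes were too rare to compare. They stood in 1.63% of all windows, and among the higher rising genes in Dusp5 and Egr2 alone (2 of 23 genes), against 3 of the 96 genes within 1.5-fold. Egr2 windows made up 4 of the 5 windows with a CArG box in the higher group, and without Egr2 the share was 1 of 32 windows (3.13%). Several genes have more than 1 window, Egr2 alone has 5 with some of them overlapping, and a match is a run of letters and not a shown binding site.

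Genes known to respond to glucocorticoid hormones leaned to higher values in tau-/- vehicle. Of 9 listed members, all rising genes, 6 were higher (66.7%, against 18.3% of all rising genes). Above tau+/+ at any size were 8 (88.9%, against 69.1%). The median of 0.64 stood beside 0.22 for the other 166 rising genes. This list, like the others, was chosen with earlier results of these data known. Sgk1, a kinase that keeps ion channels at the membrane, was at 19.4 FPKM in tau+/+ and 47.3 FPKM in tau-/- after vehicle (2.44-fold, log2 1.28), and at 59.3 and 37.1 FPKM after PTZ. Cebpb, a transcription factor of the acute phase, was at 2.37 and 4.99 FPKM after vehicle (2.11-fold) and at 5.78 and 2.46 FPKM after PTZ, so that the tau-/- vehicle library lay near tau+/+ PTZ. Ddit4, an inhibitor of mTORC1, was at 16.6 and 25.8 FPKM (1.55-fold). The mRNA-destabilising factor Zfp36 was at 2.12 and 3.04 FPKM (1.43-fold) and the cell cycle inhibitor Cdkn1a at 6.22 and 7.29 FPKM (1.17-fold). Dusp1 was the member that lay level. Errfi1 and Dusp1 are also counted among the MAP kinase inhibitors.

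Clock genes overlapped with that list in Per1 and Bhlhe40. Per1, a repressor of the core clock, was at 11.1 FPKM in tau+/+ and 19.1 FPKM in tau-/- after vehicle (1.72-fold), and at 32.0 and 18.9 FPKM after PTZ. Bhlhe40, another repressor, was at 29.7 and 46.4 FPKM after vehicle (1.56-fold), and at 47.0 and 39.2 FPKM after PTZ. Gm129, a further clock repressor, was at 3.63 and 5.79 FPKM (1.59-fold), and Nfil3 at 4.24 and 6.12 FPKM (1.44-fold). The nuclear receptor gene Rorb, a falling gene, was at 2.58 and 2.13 FPKM (log2 -0.27). Together 3 of 5 were higher (60%, against 13.9% of all listed genes), with a median of 0.64. This median and that of the glucocorticoid list are both the value of Bhlhe40. Of the higher clock genes, only Gm129 is not also on the glucocorticoid list. The time of day at which each mouse was taken is not given in the sources used here.

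**Figure D3:**
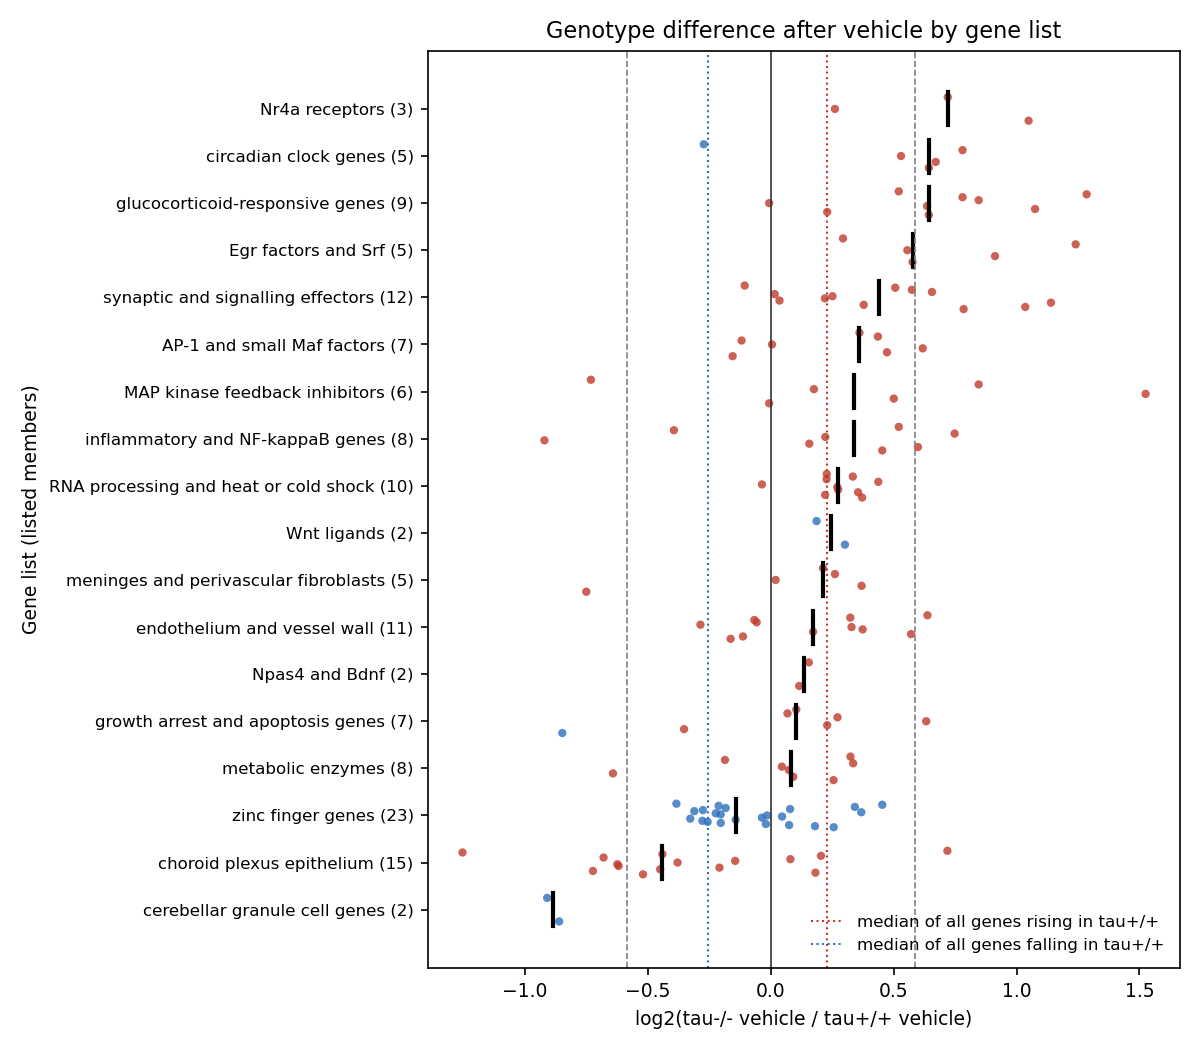
Each point is a listed gene, placed by log2 of tau-/- vehicle over tau+/+ vehicle and by gene list, in red for rising and blue for falling genes, with a black bar at the median of the list. Nr4a receptors, clock genes and glucocorticoid-responsive genes have medians above the dashed 1.5-fold line, Egr factors lie just short of it at 0.58, and choroid plexus genes lie on the left at -0.44 although all are rising genes. The clock and glucocorticoid lists share members, and both medians are the value of Bhlhe40.

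Choroid plexus epithelium, which secretes cerebrospinal fluid, was the list that ran against the rising genes. All 15 members are rising genes, but only 4 were above tau+/+ in tau-/- vehicle (26.7%, against 69.1% of all rising genes). By over 1.5-fold, 5 were lower (33.3%, against 8.57%) and 1 was higher (6.67%, against 18.3%). The median was -0.44, beside 0.26 for the other 160 rising genes. Ttr, the thyroid hormone carrier that dominates this tissue, was at 1504 FPKM in tau+/+ and 1107 FPKM in tau-/- after vehicle (log2 -0.44), and at 2492 and 33.1 FPKM after PTZ. The water channel Aqp1 was at 3.09 and 1.87 FPKM after vehicle (log2 -0.72), the Wnt and BMP antagonist Sostdc1 at 9.18 and 5.73 FPKM (log2 -0.68), the potassium channel Kcnj13 at 13.5 and 8.73 FPKM (log2 -0.62) and the folate receptor Folr1 at 13.0 and 8.45 FPKM (log2 -0.62). Wdr86 had the lowest value of the list, but at 1.28 and 0.534 FPKM.

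Members of the choroid plexus list did not move as 1 block. Slc4a5, a bicarbonate transporter, was at 2.33 and 2.47 FPKM after vehicle, Abca4 at 1.20 and 1.36 FPKM and the ion channel Trpv4 at 1.73 and 1.995 FPKM, all slightly above tau+/+, and the weakly expressed Wfikkn2 was at 0.743 and 1.22 FPKM. The summed level of the 15 genes after vehicle was 1587 FPKM for tau+/+ against 1168 FPKM for tau-/-, and without Ttr it was 83.2 against 60.3 FPKM. After PTZ it was 2639 FPKM for tau+/+ against 41.6 FPKM for tau-/-, so the tau-/- PTZ library stood apart from the other 3. The share of choroid plexus in each brain sample was not measured, and its part in these values was not tested.

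**Figure D4:**
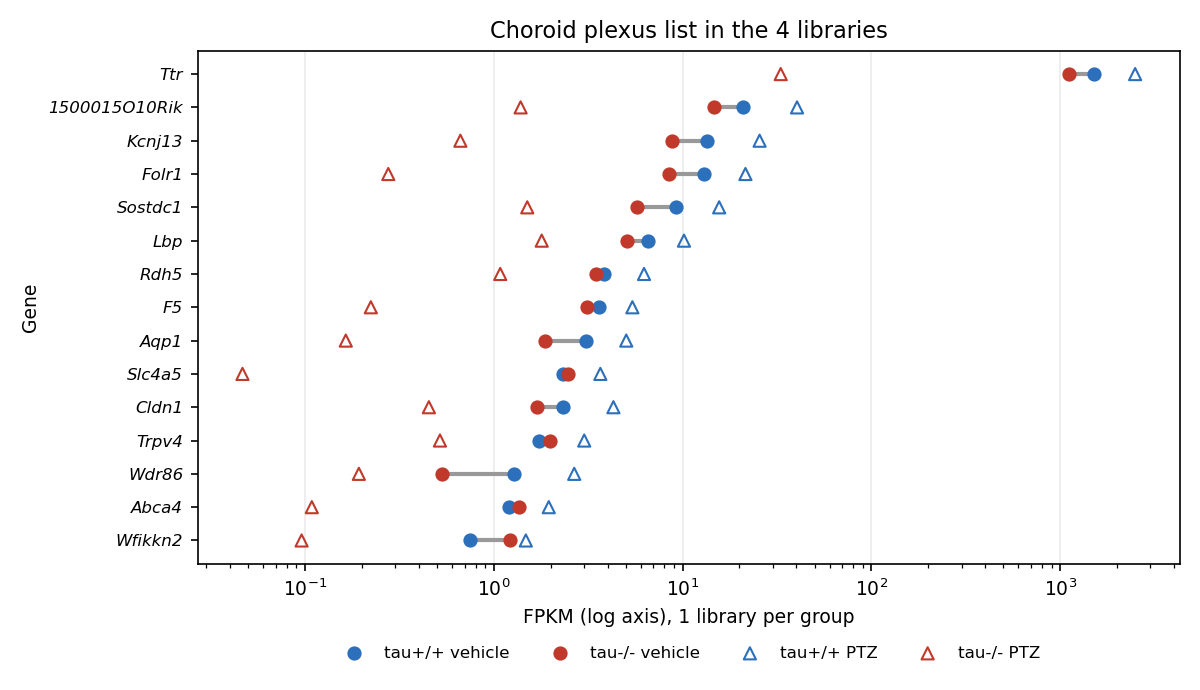
FPKM on a log axis for the 15 choroid plexus genes in each of the 4 libraries, in order of the tau+/+ vehicle value, with filled circles for vehicle, open triangles for PTZ, blue for tau+/+ and red for tau-/-. The tau-/- vehicle circle lies to the left of the tau+/+ one for 11 of the 15 genes, and the tau-/- PTZ triangles lie far to the left of both.

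Cells of the other brain borders showed no common direction. Fibroblast genes of the meninges had a median of 0.21 over 5 members, with 4 above tau+/+ and Aldh1a2, which makes retinoic acid, lower at 2.93 and 1.74 FPKM (log2 -0.75). Lum, a proteoglycan of collagen fibrils, was at 1.73 and 2.24 FPKM and Pcolce, a collagen-processing protein, at 6.72 and 7.78 FPKM. Of 11 endothelial and vessel wall genes, 6 were above tau+/+ and the median was 0.17. Thbs1 was the only one higher, and only at 0.581 and 0.904 FPKM. Klf2 (6.21 and 5.97 FPKM), Klf4 (2.31 and 2.21 FPKM) and Adamts1 (4.59 and 4.09 FPKM) were level or slightly below tau+/+. In the same list, Cyr61 (log2 0.37) and Apold1 (log2 0.57) lay above tau+/+ without passing 1.5-fold. Apold1 was under 1 FPKM in both vehicle libraries. With 5 of the 11 genes below tau+/+, the list had no common direction.

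Transcripts for RNA processing and for the heat and cold shock responses were close to the background of rising genes. None of the 10 members passed 1.5-fold in either direction, 9 were above tau+/+ (90.0%, against 69.1% of all rising genes) and the median was 0.27, beside 0.22 for the other 165 rising genes. The splicing kinases Clk1 and Clk4 were at 16.9 and 21.6 FPKM and at 7.67 and 9.28 FPKM, and the cold-inducible RNA-binding proteins Rbm3 and Cirbp at 8.39 and 10.6 FPKM and at 16.9 and 19.7 FPKM. Dnajb1, the classical heat shock cochaperone, was level at 19.6 and 19.2 FPKM.

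Growth arrest genes had a median of 0.10 over 7 members, with Gadd45b, a stress-inducible gene linked to DNA demethylation, higher at 5.93 and 9.19 FPKM (1.55-fold). Bbc3, which codes for the apoptosis inducer Puma, was lower at 2.09 and 1.16 FPKM (log2 -0.85) and is a falling gene, with 1.18 and 1.61 FPKM after PTZ. The antiapoptotic gene Mcl1 was level at 16.9 and 17.8 FPKM. Inflammatory genes were all weakly expressed, with a highest vehicle value of 3.04 FPKM. Of 8 members, the nucleotide receptor gene P2ry6 (1.25 and 2.09 FPKM) and the cytokine signalling inhibitor Cish (1.34 and 2.04 FPKM) were higher, and Nfkbid (0.422 and 0.223 FPKM) was lower. Metabolic enzymes had a median of 0.08 over 8 members. Gstm2, a glutathione transferase gene, was the only one past 1.5-fold, lower at 1.12 and 0.718 FPKM (log2 -0.64).

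Zinc finger genes made up the largest group of falling genes and showed no member past 1.5-fold. Of 23, 15 were below tau+/+ in tau-/- vehicle and 8 above (34.8%, against 25.5% of all falling genes), with values from -0.38 (Zscan12, 1.88 and 1.44 FPKM) to 0.45 (Zkscan14, 2.89 and 3.96 FPKM). Their median of -0.14 was nearer to 0 than the median of the 32 other falling genes, which was -0.38. The Wnt ligand genes Wnt9a (1.80 and 2.05 FPKM) and Wnt10a (1.43 and 1.76 FPKM), also falling genes, were slightly above tau+/+.

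The lower falling genes included both listed genes of cerebellar granule cells. Cbln1, a secreted organiser of parallel fibre synapses, was at 3.26 FPKM in tau+/+ and 1.79 FPKM in tau-/- after vehicle (log2 -0.86), and at 1.87 and 2.54 FPKM after PTZ. Unc13c, a vesicle priming factor of the same cells, was at 2.87 and 1.52 FPKM after vehicle (log2 -0.91), and at 1.72 and 2.44 FPKM after PTZ. For both genes tau+/+ vehicle was the highest and tau-/- vehicle the lowest of the 4 libraries. The list has 2 members, too few to describe the cell type.

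Outside all lists lie 95 genes, and their median was 0.02, with 10 higher and 11 lower. Plk5, a brain-enriched kinase-like protein, was the most abundant of the higher ones, at 3.18 FPKM in tau+/+ and 6.62 FPKM in tau-/- after vehicle (2.08-fold) and 5.31 and 4.14 FPKM after PTZ, so that tau-/- vehicle was its highest library. Sik1, an activity-inducible kinase that restrains CREB coactivators, was at 2.28 and 3.63 FPKM (1.59-fold), and Csrnp1, an early nuclear protein gene, at 2.20 and 3.53 FPKM (1.60-fold). 1810011O10Rik, annotated as Tcim in GENCODE, was at 0.707 and 1.43 FPKM (2.02-fold). The other higher genes outside the lists, C2cd4a, Gm11744, BC067068, LOC100504703 and Atoh8, had log2 values from 0.67 to 0.85 and stayed below 3 FPKM in both vehicle libraries. Kcnj2, which codes for an inward rectifier potassium channel, had the lowest ratio of the genes with a mean of at least 1 FPKM, with 2.90 FPKM in tau+/+ and 1.38 FPKM in tau-/- after vehicle (log2 -1.07) and 10.6 and 0.882 FPKM after PTZ. Zfp36l2, an mRNA-destabilising factor, was at 7.90 and 4.65 FPKM (log2 -0.77), opposite to its relative Zfp36. Cobl, an actin nucleator, was at 5.09 and 3.03 FPKM (log2 -0.75), and the transcription factor gene Klf5 at 4.13 and 2.57 FPKM (log2 -0.69). Gm11549 was at 2.23 and 1.27 FPKM (log2 -0.82). The defensin gene Defb11 was at 11.7 and 5.86 FPKM after vehicle (log2 -0.9995) and is listed at 0 in tau-/- PTZ.

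Position on the chromosome was examined because the tau-/- allele is an insertion into Mapt, which lies at chr11:104231390-104332090 on GRCm38. GENCODE M21 located 225 of the 230 listed genes, 21 of them on chromosome 11. Of these 21, 4 were higher and 3 lower, and their median of 0.09 stood beside 0.11 for the 204 genes on other chromosomes, where 26 were higher and 19 lower. The listed gene nearest to Mapt is Arl4d, at chr11:101665541-101667832 and 2.56 Mb away, which was 2.05-fold higher. Slc16a6, 5.12 Mb away, was at 1.90 and 1.76 FPKM, and Cwc25, 6.46 Mb away, at 5.30 and 6.39 FPKM. Kcnj2, at chr11:111066164-111076821 and 6.73 Mb from Mapt on the other side, had the lowest ratio of the genes above 1 FPKM. Slc16a6 and Cwc25 were named after their values were seen, so these nearest genes are not an independent selection. On chromosome 11 as a whole, 19.0% of the listed genes were higher and 14.3% lower. On the other chromosomes the shares were 12.7% and 9.31%. Whether proximity to the insertion bears on these values was not tested.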

How the data were processed

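Brain RNA of tau+/+ and tau-/- mice given vehicle or PTZ was sequenced in 4 libraries, 1 per group. Per the submitters' processing notes, CASAVA 1.7, TopHat2 2.03, Bowtie2 2.0.0.6, Cuffdiff 2.01 and mm10 were used. The deposited values are FPKM, which the authors computed with Cuffdiff for 230 genes they selected. The annotation is not given in the sources used here. The authors' 4 columns of log2 fold changes and p-values hold their own comparisons and were not used. The study states a minimum of aligned read pairs per sample, but not the depth of each library or the counts behind each FPKM, so no counting error was attached.

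Ratios of tau-/- vehicle over tau+/+ vehicle were taken on the log2 scale without a pseudocount, and genes past 1.5-fold were counted. With 1 library per group no test was made. Genes were named if they were among the 10 highest or 10 lowest ratios with a mean of at least 1 FPKM, in a gene list, or measured by the study with PCR. Others were named after their values were seen (E030010A14Rik, Xlr3b, Sik1, Csrnp1, Klf5, Slc16a6, Cwc25, C2cd4a, Gm11744, BC067068, LOC100504703 and Atoh8). The members and lists were chosen with earlier results of these data known. Alternatives were pseudocounts of 0.1 and 1 FPKM, means of at least 1 or 5 FPKM, centring on the median, a threshold of 2-fold, the table without choroid plexus, meninges and vessel genes, and rising and falling genes apart. Positions came from GENCODE M21 (212 genes by symbol, 13 by an older symbol) and promoters from RefSeq. The functions were tested on simulated data. Python 3.11.15, numpy 2.4.6, pandas 2.3.3 and matplotlib 3.10.9 were used.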

Additional observations from a re-analysis of the deposited data

Results flagged for a closer look

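For 27 of the 51 genes past 1.5-fold after vehicle that are named or in a list, the genotype difference after PTZ passed 1.5-fold in the opposite direction. The contrast between treatments was not tested, each value rests on 1 library per group, and the table was chosen for a weaker PTZ response in tau-/-, so such reversals are partly fixed by the choice of genes. After PTZ, the log2 ratio of tau-/- over tau+/+ was -3.50 for Fosb, -2.90 for Egr2, -2.05 for Nr4a1, -2.59 for Egr4, -2.79 for Arl4d, -2.32 for Arc and -1.60 for Errfi1, all genes higher in tau-/- after vehicle. The same held for Gm129 at -1.23, Dusp5 at -0.81, Gem at -1.09, Rasl11a at -1.32, Nr4a3 at -0.85, Sgk1 at -0.68, Per1 at -0.75, Cebpb at -1.23, Gadd45b at -1.20, Cish at -0.92, Sik1 at -1.07, Csrnp1 at -0.87, LOC100504703 at -1.23, C2cd4a at -1.49, Atoh8 at -0.60 and Gm11744 at -0.82. Thbs1, Wfikkn2 and E030010A14Rik, all under 1 FPKM on average after vehicle, were at -1.28, -3.95 and -0.98 after PTZ. Among these 27, Gm11549 was the single gene lower after vehicle (-0.82) and higher after PTZ (0.75).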

How the results depend on the processing

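The median over all genes, 0.11, became 0.23 among genes averaging at least 5 FPKM, 0.23 in rising genes alone and -0.26 in falling genes alone, and centring makes it 0 by construction. The count of higher genes, 32, became 15 with a pseudocount of 1 FPKM, 13 among genes averaging at least 5 FPKM, 19 after centring and 10 at 2-fold. The count of lower genes, 23, became 9, 6 and 4 with that pseudocount, that mean and 2-fold, and 29 after centring, which turned 32 higher against 23 lower into 19 against 29. Centring moved the medians to 0.47 for Egr factors and Srf, 0.61 for Nr4a receptors, 0.34 for synaptic and signalling effectors, 0.23 for MAP kinase feedback inhibitors, 0.54 for glucocorticoid-responsive genes, -0.55 for choroid plexus and -0.25 for zinc finger genes. The choroid plexus median was -0.32 with a pseudocount of 1 FPKM and -0.57 when means reached at least 5 FPKM. Sign changed for growth arrest genes (-0.0032) and metabolic enzymes (-0.024) after centring and for vessel genes (-0.058) when means reached at least 1 FPKM. Of 51 genes past 1.5-fold that are named or in a list, 48, 24 and 38 stayed past it with pseudocounts of 0.1 and 1 FPKM and after centring. A pseudocount shrinks ratios of low genes by its construction. No paired analysis was possible because each group has 1 library. The counts behind each FPKM are not known, so no error was attached to low values.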
